A study of Mus musculus with 8 samples.

Results

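The genes described here are 9 genes of the Hedgehog pathway, Ptch1, Gli1, Gli2, Gli3, Smo, Hhip, Sufu, Boc and Gas1, taken by symbol from the 22609 gene symbols of the count tables. All 9 were present, and all 9 passed the filter on low counts. Total RNA was sequenced from mouse dental papilla cells carrying floxed Bmp2 alleles (iBmp2 fx/fx, called fx/fx here) or the Bmp2 deletion (iBmp2 ko/ko, called ko/ko), with 1 library per genotype at 6, 24, 48 and 72 h of culture, 8 in all. Both are immortalized lines, and the labels name no treatment, age or strain. The design text gives 8 h in place of 6 h. As each genotype has a single library at a given time, the culture times served as replicates. Differences between the lines other than Bmp2 cannot be told apart from the genotype, and p-values measure only the spread between these libraries. The comparisons use the 6 libraries of 6, 48 and 72 h, the times in the study's methods, and the 24 h libraries are shown apart.

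In the Hedgehog pathway, the receptor Ptch1 holds the membrane protein Smo inactive until a ligand (Shh, Ihh or Dhh) binds. Smo then acts at the primary cilium to release the Gli transcription factors from Sufu. Gli1 and Gli2 act mainly as activators and Gli3 mainly as a repressor. Ptch1, Gli1 and Hhip are themselves transcribed in response to the signal, while Boc and Gas1 are co-receptors that are commonly lowered by it. In the tooth germ, Shh comes from the dental epithelium and acts on both the epithelium and the neighbouring papilla mesenchyme.

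Between 25890110 and 32415665 reads per library fell on genes, so that 3 counts, taken as the limit of detection, corresponded to 0.0925 to 0.116 counts per 1000000 reads on genes (CPM). Such floors and the Poisson intervals given here cover counting error only. Bmp2 had 1 read in the fx/fx library of 24 h and 0 in the other 7 libraries, so its level does not check the genotype labels. Of 17 dental mesenchyme markers, 12 averaged at least 1 CPM, but Lhx8, Barx1 and Dspp had at most 3 counts in every library. The summed level of these markers was 7000 to 9012 CPM in the fx/fx and 9295 to 13567 CPM in the ko/ko libraries of 6, 48 and 72 h, of which Col1a1, Col1a2 and Vim made up 90.1 to 96.8% over the 8 libraries. Of the 12 markers, 7 lay lower in all 3 ko/ko than in all 3 fx/fx libraries (Msx1, Msx2, Lhx6, Dlx1, Dlx2, Runx2 and Twist1), beside 10.5% of all genes, and 2 lay higher (Pax9 and Vim), beside 8.76%. Dlx2, a homeobox gene of the jaw and tooth mesenchyme, had 50.1, 41.0 and 55.4 CPM in the fx/fx and 3.74, 3.79 and 17.2 CPM in the ko/ko cells at these times. Its 24 h pair went the other way, at 33.0 CPM in the fx/fx and 44.5 CPM in the ko/ko library. The part of these markers in the results below was not tested. Of 9 epithelial markers, 0 averaged 1 CPM, their sums were 1.12 to 1.90 and 0.888 to 2.01 CPM, and Krt5, Amelx, Ambn and Enam had at most 3 counts everywhere. The lists for endothelium, blood and glia each had 1 of 5 markers at 1 CPM or more, and their sums did not pass 14.2 CPM. At 6, 48 and 72 h the blood sums were 4.25 to 14.2 CPM in the fx/fx and 2.67 to 3.47 CPM in the ko/ko libraries. At 24 h they were 5.54 and 6.59 CPM. The endothelium and glia sums overlapped between the genotypes. Across all genes, the ko/ko library of 24 h stood apart: 35.4% of 13039 genes lay nearer to the mean of the other ko/ko libraries than to the fx/fx mean.

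Of the 9 genes, 7 had an entry in the RefSeq promoter table (GRCm38.p6, a later build than the mm9 used for counting). Gli1 and Boc had none. The windows of 4 genes are shown, those of the members with an entry whose genotype difference passed the adjusted limit in the analysis with culture time as a block, described below: Ptch1, Gli3 and Gas1, which were lower in the ko/ko cells, and Gli2, which was higher. Each line gives the 250 bases before the gene's start, 5′ to 3′, with capitals marking GGCGCC, a GC-rich element known to bind Smad1 and Smad5, the effectors of Bmp signals.
Ptch1 promoter, chr13:63565736-63565985, minus strand: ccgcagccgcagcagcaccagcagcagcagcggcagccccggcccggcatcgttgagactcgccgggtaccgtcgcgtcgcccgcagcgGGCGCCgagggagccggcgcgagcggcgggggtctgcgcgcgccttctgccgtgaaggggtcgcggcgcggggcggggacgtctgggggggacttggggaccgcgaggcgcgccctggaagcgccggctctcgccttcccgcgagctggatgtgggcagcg
Gli3 promoter, chr13:15463473-15463722, plus strand: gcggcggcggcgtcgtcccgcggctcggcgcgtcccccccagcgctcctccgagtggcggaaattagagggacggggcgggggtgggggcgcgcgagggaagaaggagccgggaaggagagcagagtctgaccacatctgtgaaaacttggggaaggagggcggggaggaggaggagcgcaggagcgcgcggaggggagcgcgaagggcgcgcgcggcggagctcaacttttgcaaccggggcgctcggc
Gas1 promoter, chr13:60177536-60177785, minus strand: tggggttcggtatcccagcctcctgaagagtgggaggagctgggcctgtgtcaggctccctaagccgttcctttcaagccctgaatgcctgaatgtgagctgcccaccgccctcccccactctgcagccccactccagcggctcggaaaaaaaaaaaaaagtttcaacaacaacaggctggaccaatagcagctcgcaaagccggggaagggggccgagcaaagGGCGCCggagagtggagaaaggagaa
Gli2 promoter, chr1:119053620-119053869, minus strand: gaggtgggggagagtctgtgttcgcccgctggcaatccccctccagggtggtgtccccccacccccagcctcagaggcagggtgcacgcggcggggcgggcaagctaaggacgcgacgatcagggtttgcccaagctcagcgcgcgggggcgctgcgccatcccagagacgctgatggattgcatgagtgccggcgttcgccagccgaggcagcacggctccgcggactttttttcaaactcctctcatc

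The palindromic GGCGCC stood once in the Ptch1 window, 161 bases before the start, and once in that of Gas1, 26 bases before it. Including Sufu, 3 of the 7 windows held it, as did 9.59% of 32851 promoter windows of this length. The Gli binding motif TGGGTGGTC, searched on both strands, was in 0 of the 7 windows, also with 1 mismatch allowed, and 0.225% of all windows held it exactly and 5.79% with at most 1 mismatch. The GC box GGGCGG, on either strand, was in 6 of the 7 windows and in 32.7% of all. It shares no base with a GGCGCC in these 7 windows. GC content was 54.0 to 78.4% in the 7 windows, with Ptch1 the highest, against a median of 52.4% over all windows. These letters describe the windows alone, and binding was not measured.

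The 9 genes spanned a wide range of levels. Per exon length (RPKM, reads scaled to exon length and library size), the co-receptor Gas1 was highest in both genotypes, at 97.5 ± 53.8 RPKM (SD, n = 3) in the fx/fx and 54.7 ± 12.7 RPKM in the ko/ko cells. Smo followed at 24.3 ± 0.454 and 28.9 ± 1.88 RPKM, and Gli3 at 8.07 ± 1.55 and 6.18 ± 1.34 RPKM. Sufu, at 3.26 ± 0.366 RPKM, and Ptch1, at 3.17 ± 1.21 RPKM, did not differ beyond their spread in the fx/fx cells. Boc had 0.718 ± 0.111 RPKM there, above Gli1 at 0.264 ± 0.104 and Gli2 at 0.253 ± 0.0260 RPKM, which did not differ beyond their spread. Hhip was lowest in both genotypes, at 0.0864 ± 0.0220 and 0.197 ± 0.0895 RPKM. In the ko/ko cells Gli1 (0.675 ± 0.355 RPKM), Gli2 (0.578 ± 0.203 RPKM) and Boc (0.530 ± 0.232 RPKM) lay within their spread of each other, and Ptch1 had 1.53 ± 0.978 RPKM. Gli3 was therefore the main Gli gene by read level in every library, at 6.25 to 41.4 times the level of Gli2 per length. At 6 h in the ko/ko cells Gli1, at 1.08 RPKM, stood above Gli2, beside 4.67 RPKM of Gli3.

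**Figure D1:**
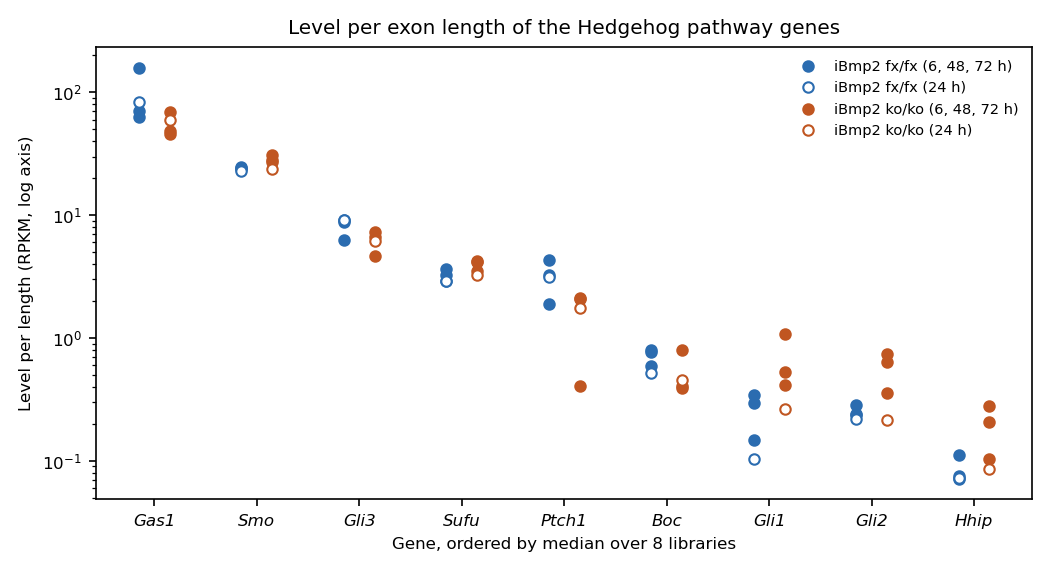
Level per exon length (RPKM, log axis) of the 9 genes in each of the 8 libraries, ordered by median, with 24 h as open circles. Gas1 and Smo sit highest and Hhip lowest, and the Gli1, Gli2 and Hhip libraries of the ko/ko cells reach above those of the fx/fx cells.

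No member passed an adjusted p of 0.05 in the comparison of genotypes without a block: 0 of 9, where 2.22% of 13121 genes tested did (edgeR quasi-likelihood test, Benjamini-Hochberg adjustment). At the limit the study used, a log2 difference over 1 in size at a p below 0.05 (taken here as unadjusted, which the study does not state, and it names Q values elsewhere), 3 of 9 passed, Gli1, Gli2 and Hhip, all higher in the ko/ko cells, beside 7.35% of all genes (3.31% higher and 4.04% lower). The same 3 of 9 had an unadjusted p below 0.05, as did 14.0% of all genes. In these bulk samples fewer cells of a type and less RNA per cell cannot be told apart. Libraries that share a culture time varied together, so the fit with culture time as a block is given beside it. With the block, 5 of 9 passed the adjusted limit, beside 22.7% of all genes (11.3% higher and 11.4% lower). Gli1 and Gli2 were higher in the ko/ko cells, and Ptch1, Gli3 and Gas1 were lower. At the study's limit the block gave 4 of 9, the former 3 and Ptch1, beside 9.46% of all genes. With both libraries of 1 time left out under the block, 2 of 9 passed the adjusted limit without 6 h (Ptch1 and Gas1, 13.9% of all genes), 3 without 48 h (Ptch1, Gli3 and Gas1, 19.6%) and 3 without 72 h (Gli1, Gli2 and Gas1, 11.7%). The median log2 difference was 0.25 over the 9 genes and 0.03 over all genes without the block. Over all 8 libraries 0 of 9 passed the adjusted limit without the block, when 0 of 13053 genes did. With the block 0 of 9 passed it, when 0.337% did. In edgeR over these 8 libraries without the block, the unadjusted p was 0.0301 for Gli1, 0.0298 for Gli2, 0.0406 for Hhip and 0.0297 for Gas1. It was above 0.05 for the other members, and 1336 or 10.2% of all genes lay below 0.05.

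**Figure D2:**
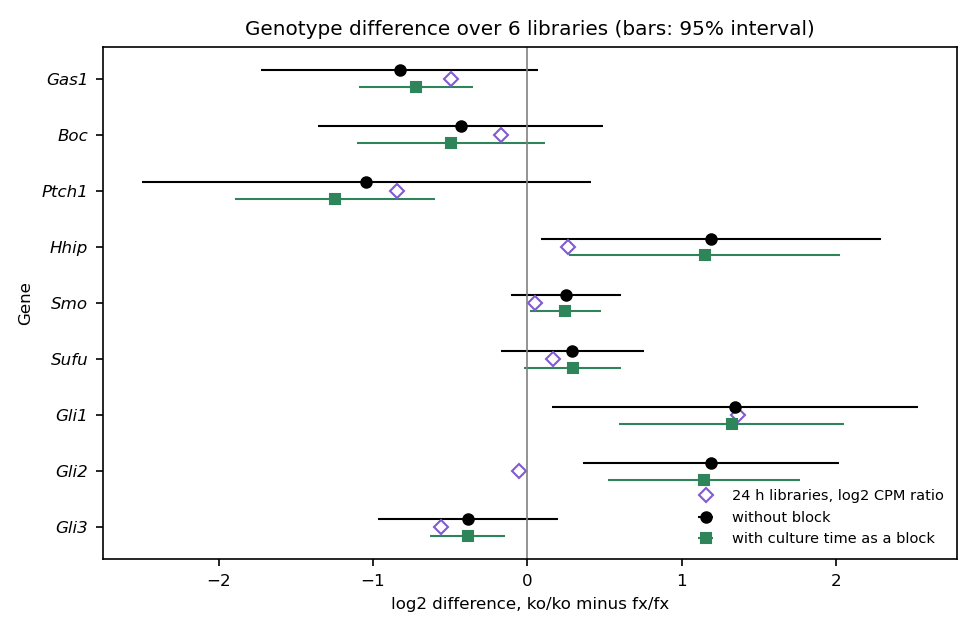
Genotype difference (log2, ko/ko minus fx/fx) of each gene over the libraries of 6, 48 and 72 h with its 95% interval, without a block (circles) and with culture time as a block (squares), and the log2 CPM ratio of the 24 h libraries (diamonds). The intervals of Ptch1, Gas1 and Gli3 lie below 0 with the block and cross 0 without it, while those of Gli1, Gli2 and Hhip lie above 0 in both.

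Ptch1 (chromosome 13 of mm9, 63610261 to 63674474, minus strand), the Hedgehog receptor and a target of its own pathway, had 12.5, 20.6, 21.5 and 28.4 CPM in the fx/fx cells at 6, 24, 48 and 72 h. In the ko/ko cells it had 2.65, 11.5, 13.8 and 13.8 CPM at the same times. It was lower in the ko/ko library at each of the 4 times, in ratio by the most at 6 h, where its 78 reads stood against 390, although the groups overlap because the fx/fx library of 6 h lies below the ko/ko libraries of 48 and 72 h. Its log2 difference was -1.04 (SE 0.62, 95% interval -2.50 to 0.41), with an adjusted p of 0.525 in edgeR without the block. With the block it was -1.25 (SE 0.28), 2.37-fold lower, with an adjusted p of 0.0182 in edgeR. Leaving out the ko/ko library of 6 h brought the unblocked difference to -0.58.

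Gli1 (chromosome 10, 126766945 to 126778645, minus strand), a transcriptional activator and the usual readout of Hedgehog activity, had 1.13, 0.388, 0.555 and 1.31 CPM in the fx/fx cells. The ko/ko cells had 4.08, 1.00, 1.57 and 2.01 CPM, from 120, 26, 48 and 52 reads. At 6, 48 and 72 h the genotypes did not overlap, with every ko/ko library above every fx/fx library, and the 24 h pair went the same way. Its log2 difference was 1.35 (SE 0.51), 2.54-fold higher, with an unadjusted p of 0.0311 and an adjusted p of 0.293 in edgeR. The block gave 1.33 (SE 0.31) and an adjusted p of 0.0223 in edgeR. Without the ko/ko library of 6 h, the unblocked difference was 0.86, and 0 of 9 genes passed the study's limit, beside 6.67% of all genes. Without the fx/fx library of 48 h, 1 of 9 passed it, Gli2, beside 5.87% of all genes. Gli1 shares 55 exonic bases with Arhgap9 on the opposite strand, a gene with 5 to 11 reads in the fx/fx and 8 to 37 reads in the ko/ko libraries. As the strand setting of the counting is not given in the sources used here, the Gli1 count is uncertain to that extent.

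The ratio of Ptch1 to Gli1 reads joined both differences. It was 11.1, 53.0, 38.7 and 21.7 in the fx/fx libraries at 6, 24, 48 and 72 h, and 0.650, 11.5, 8.77 and 6.88 in the ko/ko libraries. At each culture time the ratio was lower in the ko/ko cells, and only at 6 h of the ko/ko cells did Gli1 have more reads than Ptch1. The ranges meet, since the fx/fx library of 6 h had a ratio under that of the ko/ko library of 24 h. Both genes are known Gli targets, and here they lay on opposite sides between the genotypes.

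**Figure D3:**
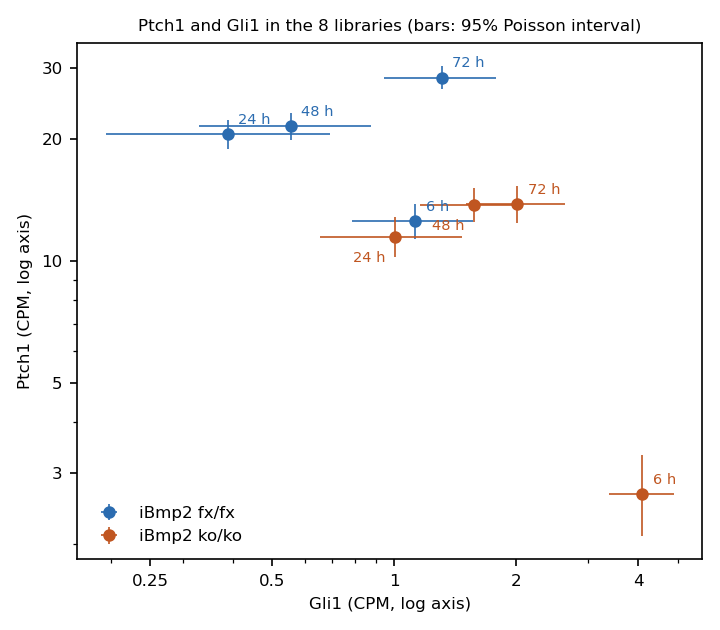
Ptch1 against Gli1 (CPM, log axes, bars show 95% Poisson intervals) in each library, with its culture time beside the point. The ko/ko library of 6 h lies alone, at 4.08 CPM Gli1 and 2.65 CPM Ptch1.

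Gli2 (chromosome 1, 120730709 to 120950196, minus strand), the main activator of the first response to Hedgehog ligands, had 1.64, 1.52, 1.94 and 1.63 CPM in the fx/fx cells. In the ko/ko cells it had 5.14, 1.46, 4.35 and 2.43 CPM. The ko/ko libraries of 6, 48 and 72 h lay above all fx/fx libraries, but that of 24 h lay just below them. The log2 difference was 1.19 (SE 0.35), 2.28-fold higher, with an unadjusted p of 0.0113 and an adjusted p of 0.187 in edgeR. With the block it was 1.15 (SE 0.27) with an adjusted p of 0.0211 in edgeR, and DESeq2, which called 6.65% of genes, called it without the block at an adjusted p of 0.0335.

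Gli3 (chromosome 13, 15555068 to 15821859, plus strand), which in the absence of ligand is cut to a repressor, had 60.3, 87.7, 84.4 and 87.4 CPM in the fx/fx cells. It had 44.8, 59.6, 69.6 and 63.3 CPM in the ko/ko cells, lower at each of the 4 times. The groups overlap through the fx/fx library of 6 h. The log2 ratios of the 4 times ran from -0.56 to -0.28. The log2 difference of -0.38 (SE 0.25) had an adjusted p of 0.570 in edgeR, and with the block -0.39 (SE 0.10) had an adjusted p of 0.0336. Without the ko/ko library of 6 h the unblocked difference was -0.21. The level of Gli3 per length was 26.3 to 41.4 times that of Gli2 in the fx/fx and 6.25 to 29.2 times in the ko/ko libraries, with the highest ko/ko ratio at 24 h.

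Among the co-receptors, Gas1 (chromosome 13, 60275766 to 60278726, minus strand), a membrane-anchored protein encoded by a single exon of 2961 bases, had 209, 249, 472 and 185 CPM in the fx/fx cells. In the ko/ko cells it had 144, 177, 205 and 136 CPM. It was lower in the ko/ko cells at each time, with the widest gap at 48 h, where both genotypes had their highest level, and the groups overlap. The log2 difference was -0.83 (SE 0.38), with an adjusted p of 0.403 in edgeR, and -0.29 without the fx/fx library of 48 h. With the block it was -0.72 (SE 0.16), 1.65-fold lower, with an adjusted p of 0.0172 in edgeR. Boc (chromosome 16, 44485158 to 44559010, minus strand) had 2.64, 2.29, 3.55 and 3.42 CPM in the fx/fx and 1.74, 2.04, 1.798 and 3.55 CPM in the ko/ko cells. It was lower in the ko/ko library at 6 and 48 h and close to even at 72 h, and its log2 difference of -0.43 (95% interval -1.35 to 0.49) had an adjusted p of 0.713 in edgeR and of 0.211 with the block. It was -0.90 without the ko/ko library of 72 h, -0.24 without that of 6 h and -0.25 without that of 48 h.

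Hhip (chromosome 8, 82490014 to 82581905, minus strand), a membrane protein that binds and traps the ligands, had 17, 10, 12 and 11 reads in the fx/fx libraries, or 0.547, 0.353, 0.370 and 0.351 CPM. It had 30, 11, 42 and 13 reads in the ko/ko libraries, or 1.02, 0.424, 1.37 and 0.502 CPM. The ko/ko libraries of 6 and 48 h were above all others, while those of 24 and 72 h lay within the fx/fx range. The log2 difference was 1.19 (SE 0.47), with an unadjusted p of 0.0378 and an adjusted p of 0.317 in edgeR. The block gave 1.15 (SE 0.38) and an adjusted p of 0.0649. At these counts a single library's 95% Poisson interval is wide, 0.689 to 1.46 CPM for the 30 reads.

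Smo (chromosome 6, 29685694 to 29711365, plus strand), the signal transducer, was nearly level over time in the fx/fx cells, at 93.5, 86.1, 90.1 and 92.3 CPM. In the ko/ko cells it had 107, 89.2, 103 and 117 CPM. The genotypes did not overlap at 6, 48 and 72 h, but the log2 difference was only 0.25 (95% interval -0.11 to 0.61), with an adjusted p of 0.538 in edgeR and of 0.113 with the block, and 0.15 without the ko/ko library of 72 h. Sufu (chromosome 19, 46471386 to 46563294, plus strand), the cytoplasmic inhibitor of the Gli proteins, had 22.6, 20.1, 20.1 and 25.2 CPM in the fx/fx and 24.6, 22.6, 28.6 and 29.7 CPM in the ko/ko cells. Its log2 difference of 0.29 (95% interval -0.17 to 0.76) had an adjusted p of 0.592 in edgeR and of 0.156 with the block, and was 0.19 without the ko/ko library of 72 h. Groups of 3 libraries that did not overlap were seen for 3 of 9 genes (Gli1, Gli2 and Smo), as for 19.3% of all genes (8.76% with ko/ko higher). Over all 8 libraries 0 of 9 did so, beside 3.39% of all genes.

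**Figure D4:**
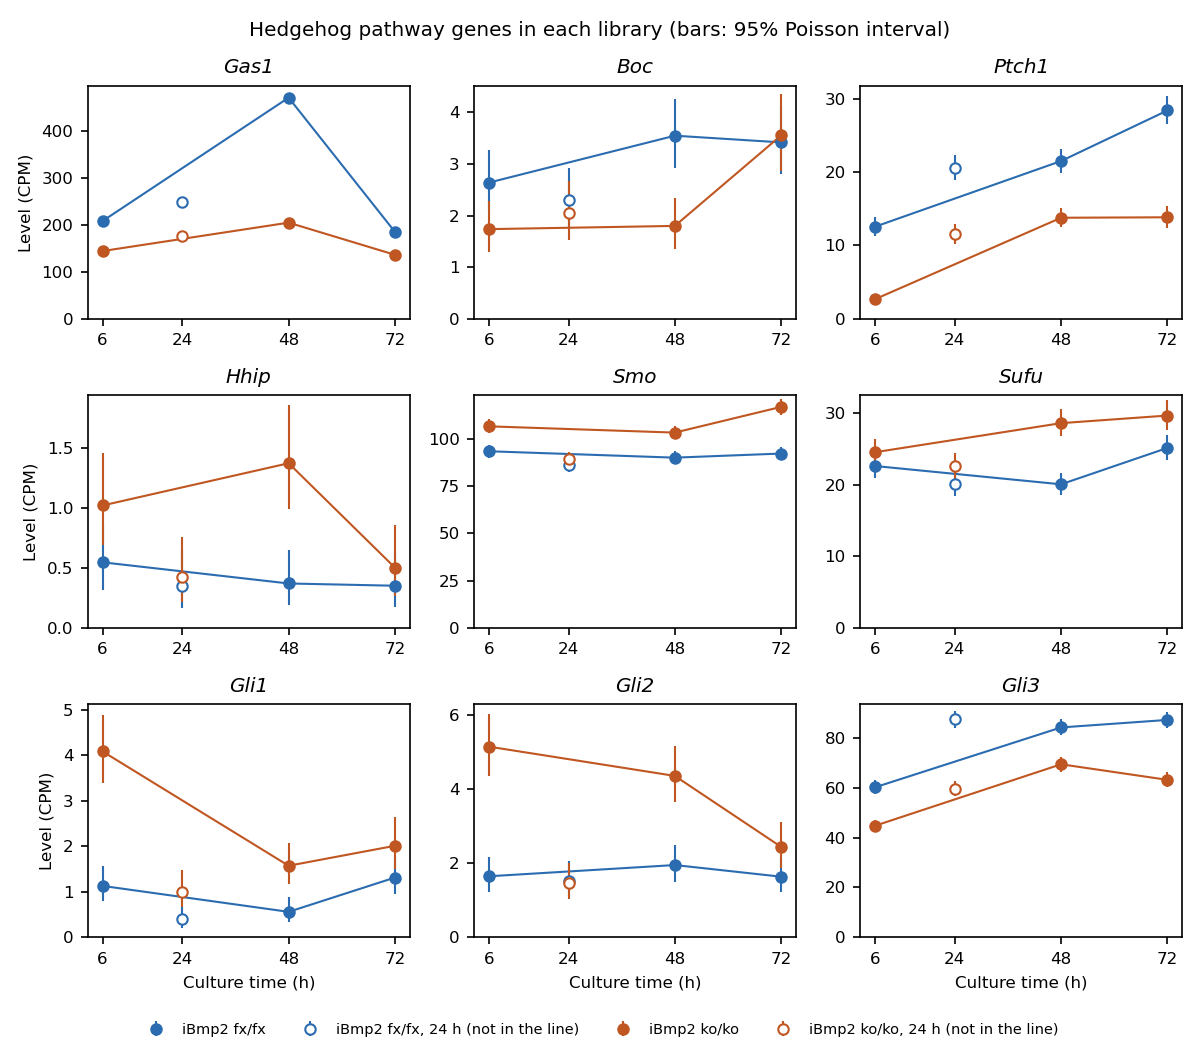
Level (CPM) of each gene by culture time in both genotypes, with 95% Poisson intervals; lines join 6, 48 and 72 h, and the 24 h libraries are open circles outside the lines. Ptch1, Gli3 and Gas1 are lower in the ko/ko cells at all 4 times, and Gli2 at 24 h meets at 1.52 and 1.46 CPM.

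The 24 h libraries are 1 per genotype with no replicate. The ko/ko library of 24 h lay nearer on the log2 scale to the ko/ko mean for 4 of 9 genes, Ptch1, Gli3, Boc and Gas1, beside 35.4% of all genes, and nearer to the fx/fx mean for 5, Gli1, Gli2, Smo, Hhip and Sufu. The log2 ratio of ko/ko to fx/fx at 24 h was 1.37 for Gli1, -0.84 for Ptch1, -0.56 for Gli3 and -0.49 for Gas1. It was 0.26 for Hhip, 0.17 for Sufu, 0.05 for Smo, -0.05 for Gli2 and -0.17 for Boc. Of the 8 genes with one sign at 6, 48 and 72 h (58.3% of all genes had one), only Gli2 took the opposite sign at 24 h, as 45.5% of such genes did over the whole table. With the 24 h libraries added, the blocked adjusted p in edgeR ranged from 0.0900 for Gli1 and Gli3 to 0.341 for Boc.

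For the trend with culture time, no gene passed the adjusted limit in edgeR, and the share of members at an unadjusted p under 0.05 was close to that of all genes. Per 2-fold longer culture, the log2 level of Ptch1 differed by 0.50 (SE 0.11), with an unadjusted p of 0.00338 and an adjusted p of 0.178 in edgeR with genotype in the fit. For Gli3 the value was 0.18 (SE 0.04), with an unadjusted p of 0.00603 and an adjusted p of 0.180 in edgeR. The trend of the other 7 genes had an unadjusted p of 0.125 or more in edgeR. Thus 0 of 9 passed the adjusted limit and 2 of 9 an unadjusted p under 0.05, beside 0 and 2775 of 13121 genes, or 21.1%. In DESeq2, which called 7.51% of genes, Ptch1 (adjusted p 0.000402) and Gli3 (adjusted p 0.0134) both rose with time. For Gli3 the 6 h library was the lowest of each genotype, and its level showed no further rise from 48 to 72 h in the ko/ko cells (69.6 and 63.3 CPM) or from 24 to 72 h in the fx/fx cells (87.7, 84.4 and 87.4 CPM). Without the ko/ko library of 6 h, the Ptch1 trend was 0.32, and the unadjusted p of Gli3 was 0.0657 in edgeR.

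Ptch1 went from 2.65 CPM at 6 h to 13.8 CPM at both 48 and 72 h in the ko/ko cells, and from 12.5 to 21.5 and 28.4 CPM in the fx/fx cells. The interaction of genotype and log2 time for Ptch1 was 0.40 (SE 0.15), with an unadjusted p of 0.0444 and an adjusted p of 1.00 in edgeR. It was -0.24 without the ko/ko and -0.0529 without the fx/fx library of 6 h, so its sign rests on the 6 h libraries. For the other 8 genes the unadjusted p was 0.321 or more, and over all genes 0 passed the adjusted limit in edgeR and 63 (0.480%) an unadjusted p under 0.05. In simulated counts this test recovered only 23 of 100 genes with a log2 interaction of 1 over the time range. A lack of calls therefore does not show like time courses.

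The ligands were scarcely detected. Shh had 0 reads in all 8 libraries, which allows up to 0.0925 to 0.116 CPM. Ihh had 3 to 9 reads and Dhh 1 to 16 reads per library, at most 0.494 CPM. Dhh, which signals in testis and nerve sheath, was the only one tested, and its log2 difference was -0.66 (SE 0.87), with an adjusted p of 0.814 in edgeR and a range of -1.92 to -0.24 when 1 library was left out.

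Beyond the 9 members, 72 other pathway genes were listed by role, and 61 passed the filter. Without the block, 2 of 61 passed the adjusted limit, beside 2.22% of all genes, and 7 passed the study's limit, 3 higher and 4 lower, beside 7.35%. With the block, 19 of 61 passed the adjusted limit, 7 higher and 12 lower in the ko/ko cells, beside 22.7% of all genes. The median log2 difference of the 61 genes was -0.02, and that of all genes 0.03. By role, the block called 1 of 3 genes of ligands and release, 2 of 6 other receptors, 5 of 20 genes of cilium and transport, 2 of 18 kinases and regulators of Gli turnover, and 9 of 14 target genes. Those 9 target genes went both ways, 5 higher and 4 lower.

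The 2 genes that passed the adjusted limit in both fits were Mks1, a transition zone protein of the primary cilium, and Nr2f1, a nuclear receptor. Mks1 had 3.22, 3.60, 4.01 and 3.003 CPM in the fx/fx cells and 0.579, 3.35, 0.981 and 0.888 CPM in the ko/ko cells. Its log2 difference was -2.05 (SE 0.35), with an adjusted p of 0.0326 in edgeR. Nr2f1 had 3.28, 2.65, 2.87 and 3.55 CPM in the fx/fx and 8.34, 3.31, 9.45 and 9.62 CPM in the ko/ko cells, a log2 difference of 1.50 (SE 0.25) with an adjusted p of 0.0306 in edgeR. In both genes the ko/ko library of 24 h lay close to the fx/fx level, at 3.35 and 3.31 CPM. Leaving out 1 library at a time gave adjusted p values of 0.0465 to 0.188 for Mks1 and of 0.0526 to 0.195 for Nr2f1 in edgeR, and over all 8 libraries both had 0.483. Of these 6 fits, only that without the ko/ko library of 72 h kept Mks1 under 0.05, and 0 kept Nr2f1, while the log2 differences stayed at -2.20 to -1.84 and 1.41 to 1.60.

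At the study's limit, Scube3, a secreted protein of the family that helps release ligands, was lower in the ko/ko cells, at 10.3 ± 3.60 against 2.53 ± 1.12 CPM (SD, n = 3 culture times). Its log2 difference was -2.02 (SE 0.44), with an adjusted p of 0.0760 in edgeR and of 0.00102 with the block. Among the listed targets, the forkhead genes Foxf1a and Foxl1 were also lower. Foxf1a had a log2 difference of -1.27 (SE 0.24, adjusted p 0.0505 in edgeR without the block and 0.00227 with it), and Foxl1 one of -1.08 (SE 0.29, adjusted p 0.137 and 0.0141). Osr2, a zinc finger gene of tooth and palate mesenchyme, was higher, at 20.7 ± 11.3 against 8.22 ± 1.47 CPM, with a log2 difference of 1.33 (SE 0.45) and an adjusted p of 0.244 in edgeR and 0.0386 with the block. Cdkn1c, an inhibitor of the cell cycle named here after its values were seen, had a log2 difference of 2.08 (SE 0.87, adjusted p 0.344 in edgeR and 0.000961 with the block), and 1.17 without the ko/ko library of 6 h. At 24 h the ko/ko library had 11.5 CPM of Scube3, 19.0 of Foxf1a, 4.47 of Foxl1 and 6.17 of Osr2, in each case nearer to the fx/fx mean than to the mean of the other ko/ko libraries. The fx/fx library of 24 h had 7.03, 25.5, 3.18 and 8.97 CPM, so the 24 h pair went the opposite way for Scube3, Foxl1 and Osr2.

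**Figure D5:**
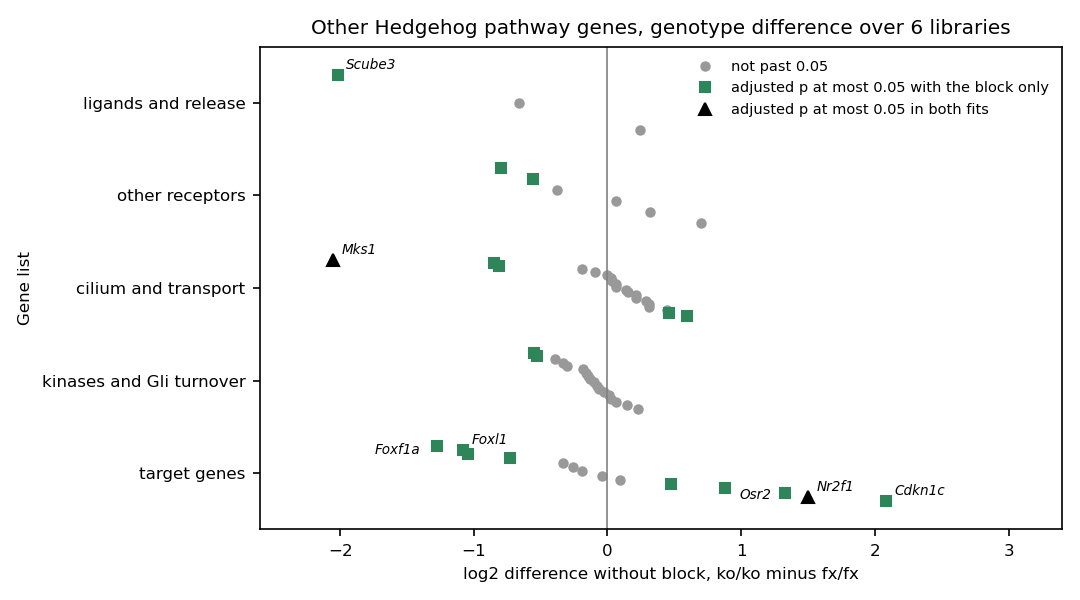
Genotype difference (log2, without block) of the 61 other pathway genes tested, by list; squares passed an adjusted p of 0.05 with culture time as a block only, triangles in both fits, and genes past the study's limit are named. Mks1 and Scube3 lie lowest, near -2, and the target genes spread to both sides of 0.

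Over the 8 libraries, the genes whose log2 CPM was most like that of Gli1, of 10548 genes with a mean of at least 5 CPM, were Spc24 (Pearson r 0.979), Ndufa13 (0.974), Zfp384 (0.973), Cltb (0.973) and AI846148 (0.972). Those most like Ptch1 were Prrc2b (0.995), Faf2 (0.994), Plcb4 (0.993), Shroom4 (0.993) and Myst3 (0.992). All these genes share the 8 libraries, in which genotype and culture time both vary, and the ko/ko library of 6 h had the highest level of the 8 for Gli1 and the lowest for Ptch1.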

How the data were processed

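RNA-seq of 8 libraries, 4 per cell line, was used. Per the labels and the study's methods, the authors processed the reads with CASAVA 1.8.2, aligned them with TopHat2 2.0.8b to mm9 and counted them with HTSeq. The deposited values are raw counts per gene symbol, without normalization. The annotation and strand setting are not given in the sources used here, and the labels give single reads of 50 bases where the methods name paired reads. Reads with several alignments (41.3 to 49.6% of alignments) and other HTSeq counters, which name no gene, were left out. The lncRNA tables held no symbol within 10000 bases of a member, and they enter no comparison. No pair of libraries held identical counts.

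Counts were fitted in R 4.3.3 with edgeR 4.0.16 (TMM, at least 10 counts in enough libraries and 15 in total, quasi-likelihood test, Benjamini-Hochberg adjustment over all genes tested) on genotype alone, on genotype and log2 hours, and with their interaction. The scripts were tested on simulated data. CPM used the reads on genes, RPKM the exon lengths of GENCODE M1, and likeness a prior count of 2. Whether culture time pairs the libraries was checked by correlating deviations from the genotype means across genes: 0.715 at 6 h, 0.538 at 48 h and 0.838 at 72 h, against -0.331 on average between other times. Over all 8 libraries the values were 0.593, -0.291, 0.313 and 0.823 at 6, 24, 48 and 72 h, against -0.110. Deviations from a genotype mean cancel out within that genotype, so positive values at the same time force negative ones between other times. The values between other times are therefore no independent comparison.

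Alternatives were the culture time as a block, 7 or 8 libraries, limma 3.58.1 (log2 CPM, offset 0.5, or log2 RPKM, offset 0.1), DESeq2 1.42.0, RLE and upper-quartile factors, no filter on low counts, a filter of 10 counts in each library, hours without logarithm and leaving out each library. Leaving out a library in the interaction, and leaving out both libraries of a time under the block, were added after seeing the data. The members and lists were chosen with earlier results of these data known. Named are the members, Bmp2, the ligands and the listed genes past the adjusted limit. Also named are listed genes with the smallest p past the study's limit (at most 12, and 4 per list), and 5 genes most like Gli1 and Ptch1. Outside these rules, cell type markers are named, with values for Dlx2, and Arhgap9, which overlaps Gli1. Cdkn1c is marked as named after its values were seen. The protein sequences and RT-qPCR values were not used here. The GGCGCC and GC box searches were added to the search for the Gli motif. Figures were made with Python 3.11.15 and matplotlib 3.10.9.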

Additional observations from a re-analysis of the deposited data

Results flagged for a closer look

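For 3 gene and genotype groups of 4 libraries, the library of 6 h stood far from the rest in log2 CPM. Its gap to the nearest library, as a share of the whole log2 range of the group, passed Dixon's 95% limit for 4 values. The share was 0.888 for Ptch1 in the ko/ko cells (lowest at 6 h), 0.898 for Gli3 in the fx/fx cells (lowest at 6 h) and 0.882 for Hhip in the fx/fx cells (highest at 6 h, from 17 reads). In all, 18 such groups were examined, and chance alone flags about 1 in 20 where the 4 values are replicates. Here they are 4 different culture times, so that rate need not hold.

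Gli2 differed between the times: the log2 ratio of ko/ko to fx/fx was -0.052 at 24 h, and 1.65, 1.16 and 0.58 at 6, 48 and 72 h. This difference was not tested, since each genotype and time has 1 library.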

How the results depend on the processing

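No genotype difference of the 9 genes changed direction under the alternatives run. The replicate block of culture time raised the members past the adjusted limit from 0 to 5, DESeq2 to 1 (Gli2, of 6.65% of genes), and the block without both libraries of 6, 48 or 72 h gave 2, 3 and 3, beside 13.9%, 19.6% and 11.7% of all genes. Gas1 passed in all 3 of these, Ptch1 without 6 or 48 h, Gli3 without 48 h, and Gli1 and Gli2 without 72 h. Of the listed genes, 2 passed as reported, and 0 over 8 libraries with or without the block, 6 over 7 libraries (3.66% of all genes), 19 with the block (13, 15 and 14 without 6, 48 or 72 h), 8 in DESeq2 and 4 without a filter (1.85%). At the study's limit, limma gave 0 members on CPM (5.70% of all genes) and 1 on RPKM (6.10%), DESeq2 2 (without Hhip, 7.84%), and 8 libraries 2 (without Gli2) and 4 listed genes (3.55%). DESeq2 gave 2 members and 6 listed genes with a time trend (7.51%), and hours without logarithm 1 listed gene (0.0305%). The Ptch1 interaction left 0 members under 0.05 with hours without logarithm, when the interactions of Gli3 (-0.000247 per hour) and Hhip (-0.000604 per hour) changed sign. The cause of these shifts was not tested.

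Leaving out each library gave 0 to 3 members and 5 to 9 listed genes at the study's limit (781 to 1343 of all genes), 0 to 3 listed genes at the adjusted limit (9 to 383 of all genes, 0.0676 to 2.86%), 1 to 3 members and 3 to 21 listed genes with an unadjusted time trend (4.35 to 32.4%), 0 to 1 listed genes with an adjusted one (0 to 196 of all genes), and 0 to 1 members with an unadjusted interaction (0.233 to 12.1%). The Gli2 time trend ranged from -0.20 to 0.0105. Interactions ranged from -0.24 to 0.48 for Ptch1, -2.51 to 0.70 for Gli1, -1.40 to 0.14 for Gli2, -0.33 to 0.0535 for Gli3, -0.11 to 0.37 for Smo, -2.23 to 0.32 for Hhip, -0.56 to 0.14 for Sufu, -0.10 to 1.62 for Boc and -1.09 to 2.28 for Gas1, each with 2 libraries left in a genotype. Depth limits Hhip (10 to 42 reads) and Gli1 (11 to 120 reads).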

Other observations

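The genotype differences of some members lay close to those of the genes around them. The median log2 difference was 0.37 over the 466 tested genes of chromosome 19, on which Sufu had 0.29, and 0.22 over the 610 of chromosome 6, on which Smo had 0.25. On chromosome 16, with 406 genes, the median was -0.24 and Boc had -0.43. Ptch1, Gli3 and Gas1 are all on chromosome 13, whose median over 463 genes was -0.05. The medians were 0.30 on chromosome 10 (Gli1), 0.16 on chromosome 1 (Gli2) and 0.10 on chromosome 8 (Hhip), against log2 differences of 1.35, 1.19 and 1.19. The part of gene position in these differences was not tested.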
